A study of Homo sapiens with 6 samples.

Results

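The transcripts of the mitochondrial chromosome were compared between HCT116 cells with an empty vector and HCT116 cells that overexpressed SETD8. The members are all genes that GENCODE release 29 places on that chromosome, and they number 37 of the 58735 gene IDs in the table. They are 13 messengers, 2 ribosomal RNAs and 22 transfer RNAs. HCT116 is an established human colorectal carcinoma line, and SETD8, encoded by KMT5A, is an enzyme that methylates lysine on histones. The labels give 3 libraries per group, with genotype WT and treatment Vector in one group and SETD8 overexpression in the other. Both groups carried lentiviral constructs and were selected with puromycin as stable clones, per one label, while the design text speaks of transfection. The sources used here do not give the number of clones in a library or the promoter that drives SETD8.

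Human mitochondrial DNA is a small circle with a heavy and a light strand, each transcribed as long precursors by the polymerase POLRMT with the factors TFAM and TFB2M. Most genes, including both ribosomal RNAs, are read from the heavy-strand promoter, and transfer RNAs lie between the other genes. Their excision by the RNase P and RNase Z enzymes releases the ribosomal RNAs and messengers, most of which then receive a tail of adenines from MTPAP. The messengers encode core subunits of respiratory complexes I, III and IV and of ATP synthase (complex V), which are completed by subunits from nuclear genes.

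All 37 sequences were found in the GENCODE 29 transcripts (GRCh38). The annotated ends of 6 messengers are shown because they differ in whether the stop codon is complete. In 6 of the 13 messengers the annotated gene ends in T or TA, so the stop codon is completed by the added adenines. The other 7 end in a full codon, including AGA in MT-CO1 and AGG in MT-ND6. The last 30 bases follow, with the stop letters in capitals.
MT-CO3: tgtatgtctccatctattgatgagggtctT
MT-ND3: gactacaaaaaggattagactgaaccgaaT
MT-CYB: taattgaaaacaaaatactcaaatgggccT
MT-ATP6: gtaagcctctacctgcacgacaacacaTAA
MT-CO1: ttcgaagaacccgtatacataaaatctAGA
MT-ND6: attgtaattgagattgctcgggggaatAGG

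The genes of 4 transfer RNAs are shown whole, since the results below turn on them or on their neighbours. MT-TL1 (chrM:3230-3304, plus strand) is the boundary between MT-RNR2 and the first messenger, MT-ND1. It holds the site bound by the transcription termination factor MTERF1. MT-TG (chrM:9991-10058, plus strand) separates MT-CO3 from MT-ND3. MT-TN (chrM:5657-5729) and MT-TC (chrM:5761-5826), both on the minus strand, flank the origin of light-strand replication.
MT-TL1: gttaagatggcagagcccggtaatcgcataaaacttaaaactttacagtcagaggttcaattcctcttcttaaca
MT-TG: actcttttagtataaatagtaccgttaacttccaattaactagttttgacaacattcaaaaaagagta
MT-TN: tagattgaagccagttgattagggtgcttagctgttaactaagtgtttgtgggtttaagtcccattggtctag
MT-TC: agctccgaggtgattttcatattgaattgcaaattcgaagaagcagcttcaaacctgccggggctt

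The libraries held 17056672 to 20471843 counted reads, of which 843313 to 1335202 lay on mitochondrial genes. KMT5A, the overexpressed gene, had 45.9, 47.2 and 53.9 CPM, the normalised read count relative to the library's total, in vector replicates 1, 2 and 3 and 65.3, 66.1 and 75.4 CPM in SETD8 replicates 1, 2 and 3 (log2 fold change 0.49 ± 0.10 SE, adjusted p = 0.0156 by edgeR). That call was lost without vector replicate 2 (0.0965) and without SETD8 replicate 1, 2 or 3 (0.0661, 0.0579 and 0.0949). Of 9 epithelial markers, 8 were detected at 1 CPM or more and VIL1 was not, while the fibroblast, endothelial and immune markers summed to at most 7.19, 2.24 and 0.947 CPM. Vector replicate 1 differed less from the SETD8 libraries (chi-square per degree of freedom 11.5 to 13.3) than from vector replicates 2 and 3 (14 and 33.8). The labels do not tie replicates to separate cultures. The p-values therefore describe only the spread between these libraries, which may be technical.

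Mitochondrial genes together took 5.95, 6.08 and 7.77% of all counted reads in vector replicates 1, 2 and 3 and 4.91, 5.36 and 4.94% in SETD8 replicates 1, 2 and 3. The SETD8 libraries were all lower, with a mean difference of -1.53 percentage points (-0.941 without vector replicate 3). The 2 ribosomal RNAs made up the larger part of it, with a mean difference of -1.09 percentage points. They took 2.24, 2.95 and 3.49% of all counted reads in vector replicates 1, 2 and 3, and 2.08, 1.69 and 1.65% in SETD8 replicates 1, 2 and 3. The means were 2.89% ± 0.63 and 1.81% ± 0.235 (SD, n = 3 each), so the vector mean was 1.6 times the SETD8 mean. The groups did not overlap, although vector replicate 1 stood only just above SETD8 replicate 1. The 13 messengers took 3.62, 3.03 and 4.21% in the vector libraries and 2.76, 3.60 and 3.23% in the SETD8 libraries. Their means of 3.62% ± 0.59 and 3.19% ± 0.42 lay within the spread of the groups, which overlapped. The 22 transfer RNAs took 0.0866, 0.102 and 0.0689% in the vector libraries against 0.0694 to 0.0719% in the SETD8 libraries, and overlapped as well. As sums over the members, these shares were not tested. A share of a bulk library cannot tell fewer mitochondria or genomes per cell from less RNA per genome.

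**Figure D1:**
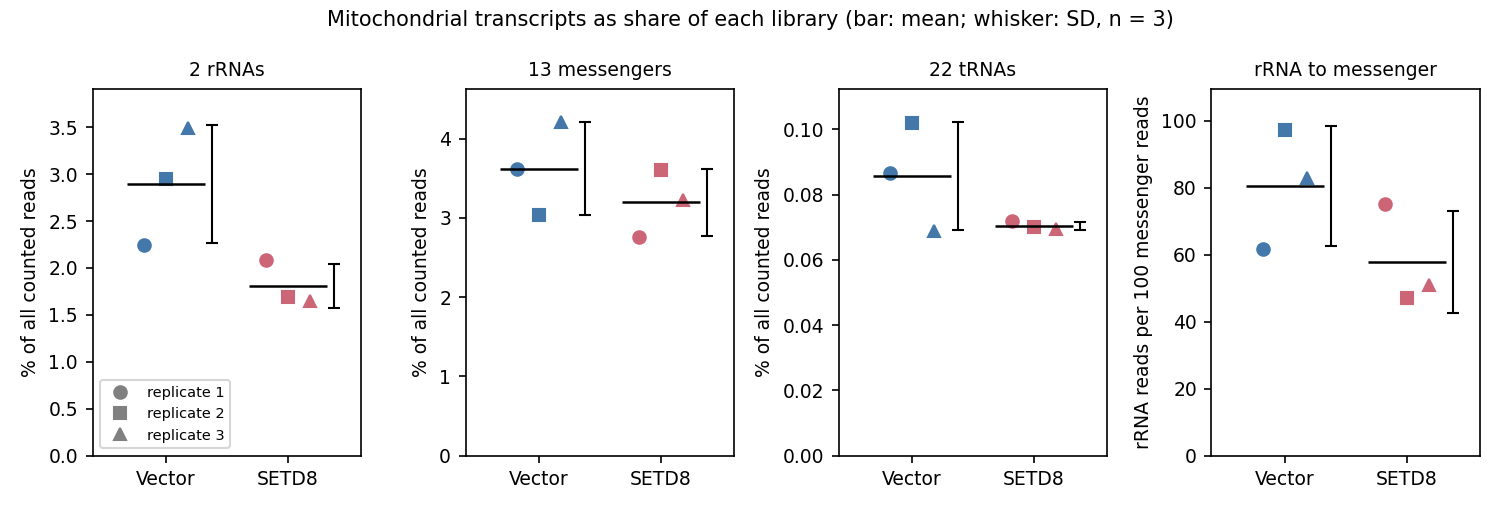
Percent of all counted reads on the 2 ribosomal RNAs, the 13 messengers and the 22 transfer RNAs, and ribosomal RNA reads per 100 messenger reads (y axes), in the 3 vector and 3 SETD8 libraries. Points are libraries, bars means and whiskers the SD. The ribosomal RNA share does not overlap between groups (1.65 to 2.08% in SETD8, 2.24 to 3.49% in vector), whereas the other 3 measures overlap.

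Within the mitochondrial reads, ribosomal RNA reads per 100 messenger reads numbered 61.7, 97.4 and 82.9 in vector replicates 1, 2 and 3 and 75.2, 47.1 and 51.1 in SETD8 replicates 1, 2 and 3. This ratio does not depend on library scaling, and its groups overlapped because vector replicate 1 lay below SETD8 replicate 1. The means were 80.7 ± 17.9 and 57.8 ± 15.2 (SD, n = 3 each), a difference of -22.8, or -14.5 without vector replicate 2. MT-RNR2 gave 3.46 to 4.37 reads for each MT-RNR1 read over the 6 libraries, with overlapping groups.

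Gene by gene, 4 of the 26 tested members fell with SETD8 and 0 rose (edgeR's quasi-likelihood test at p under 0.05, adjusted by Benjamini-Hochberg over all 14370 genes tested). Over all genes, 4.75% were called lower and 3.08% higher (7.83% in either direction). At an unadjusted p under 0.05, 7 members were lower and 1 was higher, against 13.8 and 12.3% of all genes. DESeq2 called 7 lower and 1 higher, against 6.37 and 5.24% of the genes to which it gave an adjusted p. With limma-voom 4 were lower and 0 higher, against 4.38 and 3.31%. By each of these rules the share called lower was above that over all genes and the share called higher was below it, a difference that was not tested. The 4 that fell were MT-RNR1, MT-RNR2, the complex IV messenger MT-CO3 and the transfer RNA MT-TN. The median log2 fold change of the tested members was -0.11, against 0 over all genes. The groups did not overlap in 6 tested members, all lower, which were these 4 with MT-TL1 and MT-ATP6. Over all genes the groups did not overlap in the lower direction for 15.9%, and in the higher direction for 14.4%. The 11 members that were not tested are transfer RNAs with 4 to 36 counts over the 6 libraries together, so a difference in them was not detectable at this depth. Scaling by library totals, which turned the split over all genes from 682 lower and 443 higher to 504 and 792, called the same 4 members.

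**Figure D2:**
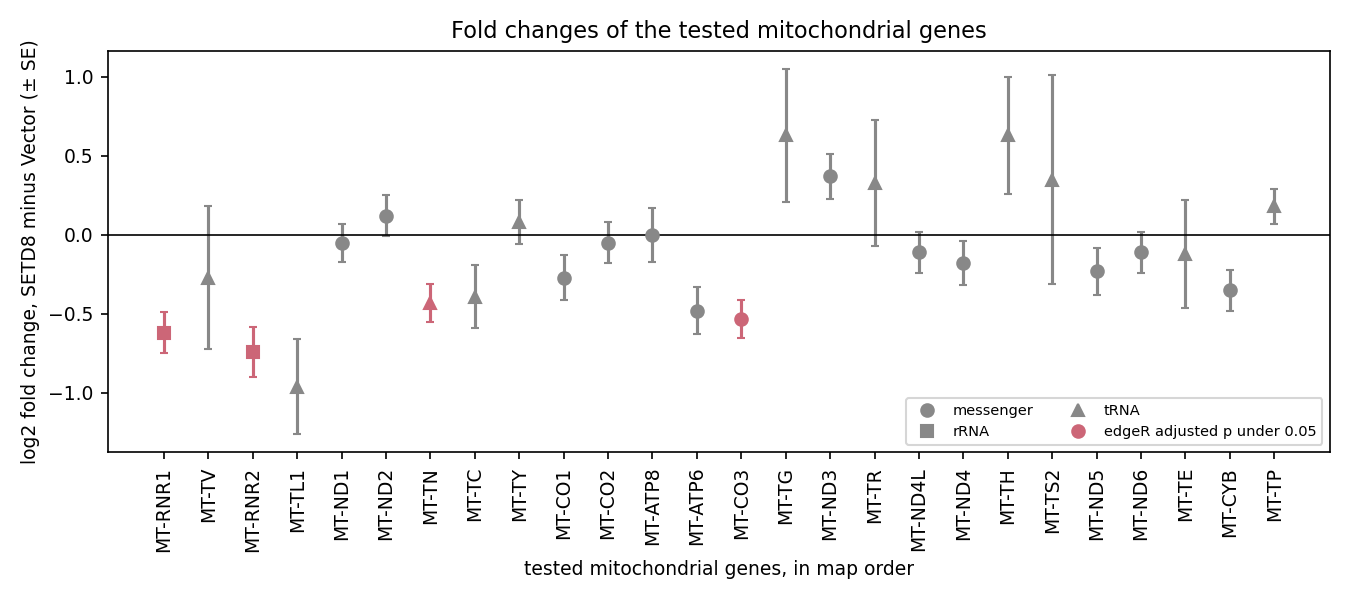
Log2 fold change, SETD8 minus vector, with its SE (y axis) for the 26 tested mitochondrial genes in map order (x axis). Symbol shape gives the class, and red marks edgeR adjusted p under 0.05: MT-RNR1, MT-RNR2, MT-TN and MT-CO3, all below 0.

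MT-RNR2 encodes the RNA of the large mitochondrial ribosomal subunit (chrM:1671-3229, plus strand, ENSG00000210082). It had 18109, 24499 and 27881 CPM in vector replicates 1, 2 and 3 and 16303, 13225 and 12677 CPM in SETD8 replicates 1, 2 and 3. All vector libraries were above all SETD8 libraries, with vector replicate 1 the lowest of its group and SETD8 replicate 1 the highest of its own. The means of 23496 ± 4963 and 14068 ± 1955 CPM (SD, n = 3 each) differed by -0.74 ± 0.16 (SE) on the log2 scale (adjusted p = 0.0184 by edgeR). MT-RNR1 encodes the RNA of the small subunit (chrM:648-1601, plus strand, ENSG00000211459). It had 5052, 5601 and 6645 CPM in the vector libraries and 4333, 3234 and 3666 CPM in the SETD8 libraries, again with no overlap. Its log2 fold change was -0.62 ± 0.13 (SE; adjusted p = 0.0177 by edgeR). Mature mitochondrial ribosomal RNAs carry only short tails of adenines, and the libraries were poly(A)-selected, so these values are levels of captured RNA.

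The transfer RNA genes beside the ribosomal RNAs had few reads. MT-TL1, downstream of MT-RNR2 and shown above, had 71, 88 and 127 counts in vector replicates 1, 2 and 3 and 71, 42 and 35 in SETD8 replicates 1, 2 and 3. Its level was 3.87, 4.39 and 7.31 CPM against 3.76, 2.17 and 2.03 CPM, so the groups stood apart by a narrow margin between vector replicate 1 and SETD8 replicate 1. It did not pass the test (log2 fold change -0.96 ± 0.30 SE, adjusted p = 0.0667 by edgeR), but passed with DESeq2 (adjusted p = 0.0444), without a low-count filter (adjusted p by edgeR = 0.00428) and without vector replicate 1 (0.00662). MT-TV, which lies between the ribosomal RNAs, had 11 to 22 counts in a vector library and 12 to 13 in a SETD8 library (log2 fold change -0.27, SE 0.45).

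Among the complex IV messengers, which encode the catalytic core of cytochrome c oxidase, MT-CO3 fell and the others did not pass. MT-CO3 (chrM:9207-9990, plus strand, ENSG00000198938) had 5219, 4988 and 6511 CPM in vector replicates 1, 2 and 3 and 3438, 4181 and 3934 CPM in SETD8 replicates 1, 2 and 3. Each vector library exceeded each SETD8 library. The means of 5572 ± 821 and 3851 ± 378 CPM (SD, n = 3 each) gave a 1.45-fold lower level (log2 fold change -0.53 ± 0.12 SE, adjusted p = 0.0245 by edgeR). MT-CO1, the most abundant messenger in reads, had 8784, 7290 and 9995 CPM in the vector libraries and 6097, 8265 and 7211 CPM in the SETD8 libraries. Its groups overlapped (log2 fold change -0.27, 95% interval -0.66 to 0.12, edgeR adjusted p = 0.239). MT-CO2 had overlapping means of 5214 ± 618 and 5024 ± 660 CPM (log2 fold change -0.05, interval -0.40 to 0.29). The intervals were set with 4 degrees of freedom, from the 6 libraries.

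MT-ATP6 and MT-ATP8 encode membrane subunits of ATP synthase and share 46 bases of the same messenger. How the counting split reads between them is therefore uncertain. MT-ATP6 had 2501, 2208 and 3435 CPM in vector replicates 1, 2 and 3 and 1669, 2118 and 2053 CPM in SETD8 replicates 1, 2 and 3. The groups did not overlap, but vector replicate 2 stood close to SETD8 replicate 2, and the gene did not pass (log2 fold change -0.48 ± 0.15 SE, adjusted p = 0.0675 by edgeR). It passed with the replicate block (edgeR adjusted p = 0.0478), with DESeq2 (adjusted p = 0.0109), without a low-count filter (adjusted p by edgeR = 4.31e-05) and without vector replicate 1 (0.0143). MT-ATP8 was at 26.2 ± 6.75 CPM with the empty vector and 26.1 ± 4.26 CPM with SETD8. Per kilobase of gene, the vector mean was 127 CPM per kilobase for MT-ATP8 and 3990 for MT-ATP6.

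The single complex III messenger, MT-CYB, encodes cytochrome b. It had 2933, 2428 and 3427 CPM in vector replicates 1, 2 and 3 and 2039, 2569 and 2304 CPM in SETD8 replicates 1, 2 and 3. SETD8 replicate 2 lay above vector replicate 2, so the groups overlapped (log2 fold change -0.35 ± 0.13 SE, adjusted p = 0.116 by edgeR). It passed as lower with DESeq2 (adjusted p = 0.045), without a low-count filter (adjusted p by edgeR = 0.00654) and with length correction (0.0395).

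None of the 7 complex I messengers, which encode core subunits of the membrane arm of NADH dehydrogenase, passed the edgeR test. At an unadjusted p under 0.05, 1 was higher and 0 were lower, and DESeq2 called that 1, MT-ND3, as did edgeR with no low-count filter, while limma-voom called 0. MT-ND4, the most abundant of them in reads, had 3699, 2928 and 4248 CPM in vector replicates 1, 2 and 3 and 2782, 3520 and 3285 CPM in SETD8 replicates 1, 2 and 3 (log2 fold change -0.18 ± 0.14 SE, adjusted p = 0.425 by edgeR). MT-ND3 (chrM:10059-10404, plus strand) had 1630, 1181 and 1080 CPM in the vector libraries and 1588, 1810 and 1630 CPM in the SETD8 libraries. Vector replicate 1 alone reached the SETD8 range. Its log2 fold change was 0.37 ± 0.14 (SE; adjusted p = 0.108 by edgeR), with adjusted p = 0.0354 by DESeq2, and edgeR adjusted p = 0.00223 with no low-count filter and 0.000808 without vector replicate 1. The log2 fold changes of the other 5 were 0.12 for MT-ND2, -0.05 for MT-ND1, -0.11 for MT-ND4L, -0.23 for MT-ND5 and -0.11 for MT-ND6.

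**Figure D3:**
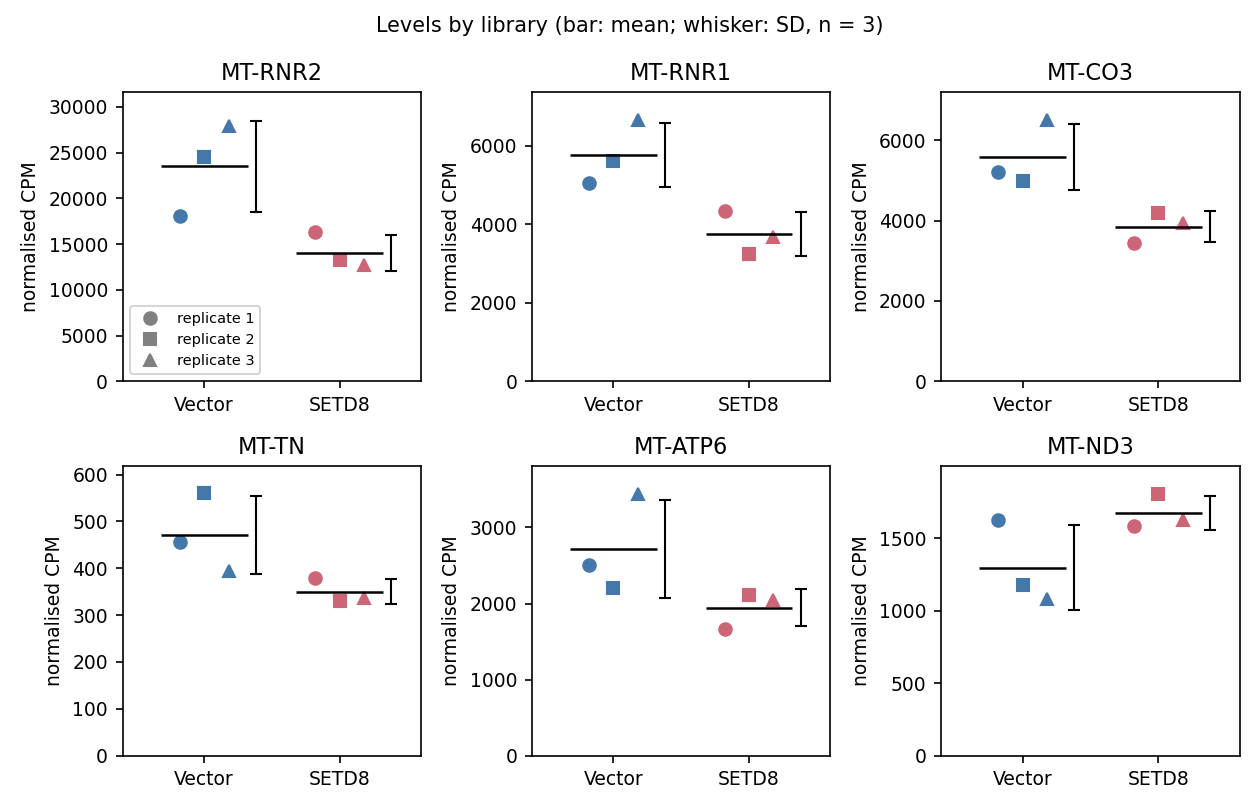
Normalised CPM (y axes) of the 4 members that fell and of MT-ATP6 and MT-ND3, in the 3 vector and 3 SETD8 libraries. Points are libraries, bars means and whiskers the SD. MT-RNR2, MT-RNR1, MT-CO3, MT-TN and MT-ATP6 are lower in each SETD8 library than in any vector library, and MT-ND3 overlaps through vector replicate 1 (1630 CPM).

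The make-up of the messenger pool, summed by complex, differed between the groups. As a part of mitochondrial messenger reads, complex I messengers took 32.6, 30.3 and 31.4% in vector replicates 1, 2 and 3 and 35.7, 34.6 and 35.7% in SETD8 replicates 1, 2 and 3. Complex III took 7.97% ± 0.23 and 7.33% ± 0.113, complex IV 53.2% ± 1.33 and 51.0% ± 0.75, and complex V 7.42% ± 0.824 and 6.27% ± 0.203 (SD, n = 3 each). In each of these 4 parts the groups did not overlap, with complex I higher in SETD8 libraries and the others lower. The messengers of 1 complex did not all move together. In complex IV the part of MT-CO3 was lower (15.2% ± 1.17 and 12.3% ± 0.287) and that of MT-CO2 higher (14.3% ± 1.68 and 16.0% ± 0.314), while MT-CO1 overlapped. Parts of 1 total depend on each other, and they were described, not tested.

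By single messenger, the parts did not overlap between groups for 9 of 13, of which 3 were lower and 6 higher with SETD8, a count that has no counterpart over all genes. MT-CO3 took 13.9, 16.1 and 15.6% of messenger reads in vector replicates 1, 2 and 3 and 12.5, 12 and 12.3% in SETD8 replicates 1, 2 and 3. MT-ND3 took 4.34, 3.82 and 2.59% in the vector libraries and 5.79, 5.18 and 5.10% in the SETD8 libraries. MT-CO3 and MT-ND3 are neighbours on the heavy-strand precursor, with only MT-TG, shown above, between them. MT-CO3 reads per MT-ND3 read, a ratio chosen after its values were seen, numbered 3.20, 4.22 and 6.03 in the vector libraries and 2.17, 2.31 and 2.41 in the SETD8 libraries. The vector libraries were higher and spread widely, and the SETD8 libraries lay close together. MT-ATP6 and MT-CYB were the other messengers with a lower part (means of 7.35 against 6.19% and 7.97 against 7.33%). Those with a higher part were MT-ND1, MT-ND2, MT-CO2, MT-ND4L and MT-ND6 beside MT-ND3, with MT-ND2 going from 4.01% ± 0.326 to 5.09% ± 0.108. MT-CO3 reads per MT-ATP6 read, from genes that follow each other with no transfer RNA between them, were 1.90 to 2.26 in vector and 1.92 to 2.06 in SETD8 libraries. MT-ND4 reads per MT-ND4L read, from overlapping genes, were 3.32 to 3.60 and 3.29 to 3.32.

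**Figure D4:**
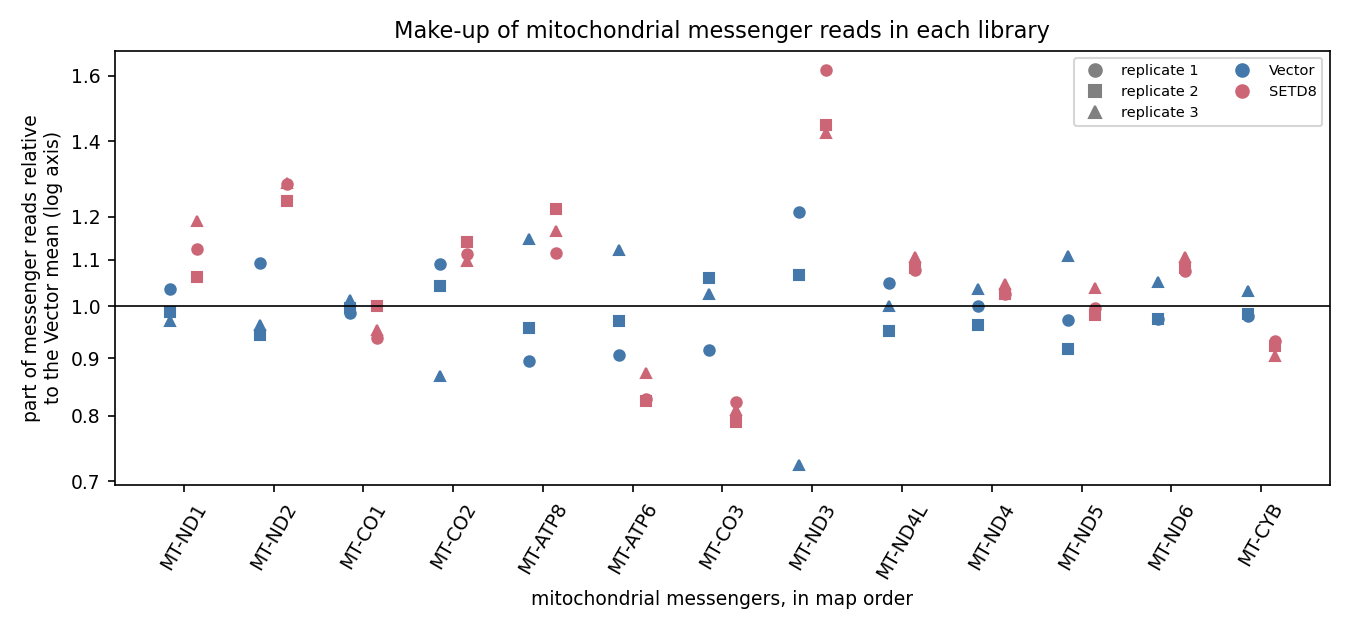
Part of mitochondrial messenger reads taken by each of the 13 messengers, divided by its vector mean (y axis, log scale), in map order (x axis). Points are single libraries. MT-CO3 is lower in all SETD8 libraries (12 to 12.5% against 13.9 to 16.1%) and MT-ND3 is higher (5.10 to 5.79% against 2.59 to 4.34%).

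Compared per kilobase in the vector libraries, MT-RNR2 was the highest of the messengers and ribosomal RNAs with 15100 CPM per kilobase, followed by MT-CO2 (7620), MT-CO3 (7110), MT-RNR1 (6040) and MT-CO1 (5640). In the SETD8 libraries MT-RNR2 had 9020, MT-CO2 7340, MT-CO3 4910, MT-ND3 4840 and MT-CO1 4660 CPM per kilobase. MT-ND1, MT-ND2, MT-ND5 and MT-ND6 lay between 1050 and 1410 in the vector libraries, and MT-ATP8 was the lowest in both groups.

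A set of 9 members is encoded in the opposite sense to the others, 8 transfer RNAs and MT-ND6. Together these 9 genes took 0.142, 0.148 and 0.138% of all counted reads in vector replicates 1, 2 and 3. In SETD8 replicates 1, 2 and 3 they took 0.118, 0.131 and 0.125%, so the groups did not overlap. As a sum, this share was not tested. The kit marks strand, but the sources used here do not give the strand setting of the counting, so reads of these genes and of the transcript opposite them cannot be told apart. MT-ND6, the most abundant of them, had 587, 482 and 701 CPM in vector replicates 1, 2 and 3 and 471, 605 and 565 CPM in SETD8 replicates 1, 2 and 3, with overlapping groups (log2 fold change -0.11 ± 0.13 SE, adjusted p = 0.634 by edgeR).

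The transfer RNA reads fell almost wholly on 4 genes of this sense, MT-TN, MT-TC, MT-TP and MT-TY, with 98.1% of them over the 6 libraries. MT-TN, for asparagine (ENSG00000210135), had 8379, 11246 and 6856 counts in vector replicates 1, 2 and 3 and 7183, 6399 and 5802 in SETD8 replicates 1, 2 and 3. In normalised CPM it had 456, 560 and 395 in the vector libraries and 380, 331 and 337 in the SETD8 libraries, with vector replicate 3 just above SETD8 replicate 1. It differed by -0.43 ± 0.12 (SE) on the log2 scale (adjusted p = 0.0438 by edgeR). MT-TC, for cysteine, had 310, 371 and 185 CPM in the vector libraries and 216, 226 and 217 CPM in the SETD8 libraries. Vector replicate 3 lay below all SETD8 libraries, and MT-TC did not pass (log2 fold change -0.39 ± 0.20 SE, adjusted p = 0.249 by edgeR) except without that library (-0.63, 0.000165). MT-TA, the gene next to MT-TN in the same sense, had 0 to 8 counts in a library. MT-TP, for proline, had 102, 82.4 and 72.7 CPM in the vector libraries and 93, 96.7 and 102 CPM in the SETD8 libraries (log2 fold change 0.18 ± 0.11 SE, adjusted p = 0.327 by edgeR), and passed as higher without vector replicate 1 (0.32, 0.0171). MT-TY had 12.8 ± 1.24 and 13.5 ± 1.83 CPM, with overlapping groups. The other 7 tested transfer RNAs, all under 10 CPM on average, had log2 fold changes from -0.96 for MT-TL1 to 0.63 for MT-TH, with SEs of 0.30 to 0.66. A mature transfer RNA is short, heavily modified and ends in CCA, so these reads need not come from mature molecules.

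Each of the 4 calls depended on 4 of the 6 libraries. All 4 were lost without vector replicate 2, with edgeR adjusted p = 0.0872 for MT-RNR1, 0.105 for MT-RNR2, 0.0748 for MT-CO3 and 0.214 for MT-TN. They were also lost without SETD8 replicate 1 (0.0528, 0.0581, 0.14 and 0.111), replicate 2 (0.0927, 0.0912, 0.0711 and 0.161) and replicate 3 (0.0989, 0.112, 0.109 and 0.176). Calls over all genes fell from 1125 to 72 without vector replicate 2 and to 11, 155 and 129 without SETD8 replicates 1, 2 and 3. The log2 fold changes moved less, from -0.74 to -0.51 for MT-RNR1, -0.90 to -0.60 for MT-RNR2, -0.60 to -0.40 for MT-CO3 and -0.54 to -0.27 for MT-TN over the 6 omissions. MT-TN had its smallest change without vector replicate 2. All 4 stayed called without vector replicate 1 or 3. Without vector replicate 1, 6 members were called lower and 2 higher, and calls over all genes rose to 3509.

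Nuclear genome copies of mitochondrial genes could share reads with the members. The table held 407 genes named as such copies, of 14 members, and 37 of them had any count. MTND2P28, MTATP6P1 and MTCO1P12, in one cluster on chromosome 1, had mean counts of 3250, 2570 and 275 per library. Of the summed reads of a copy and its member, the copy held 10.3% for MT-ND2, 5.65% for MT-ATP6 and 0.187% for MT-CO1. None of the 3 copies was called (log2 fold changes -0.06, -0.38 and -0.29, edgeR adjusted p = 0.81, 0.523 and 0.445). With copies summed into the members, the same 4 members were called.

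The nuclear genes that transcribe, process and translate the mitochondrial genome included none that fell by edgeR. Of 96 such genes, all tested, 2 rose and 0 fell, with a median log2 fold change of 0.11. Both shares were below those over all genes (3.08% higher and 4.75% lower), so the count of 2 does not set the list apart. At an unadjusted p under 0.05, 17 were higher and 6 lower, against 12.3 and 13.8% of all genes. DESeq2 called 7 higher and 1 lower (5.24 and 6.37% over all genes), and limma-voom 4 higher and 0 lower (3.31 and 4.38%). TFB2M, the initiation factor of mitochondrial transcription, had 30.3, 30.2 and 35.1 CPM in vector replicates 1, 2 and 3 and 42.0, 43.1 and 42.1 CPM in SETD8 replicates 1, 2 and 3. It rose by 0.41 ± 0.10 (SE) on the log2 scale (adjusted p = 0.0301 by edgeR), but the value was 0.22 and not called with length correction (0.244). SSBP1, which binds single-stranded mitochondrial DNA, rose by 0.41 (SE 0.11, edgeR adjusted p = 0.035). Both calls were lost without vector replicate 2 (0.149 and 0.149) and SETD8 replicates 1, 2 and 3 (0.119, 0.111 and 0.112 for TFB2M and 0.161, 0.0805 and 0.137 for SSBP1). Without vector replicate 1, by contrast, 21 of the 96 genes were called higher and 3 lower. Calls over all genes also rose in that fit, to 1771 higher and 1738 lower.

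By role, the 10 genes of mitochondrial transcription had a median log2 fold change of 0.25 with 1 called, and the 20 of DNA maintenance a median of 0.10 with 1 called. Medians were 0.03 for 14 genes of RNA processing and 0.02 for 12 listed under RNA stability. They were 0.12 for 21 genes of RNA modification and 0.10 for 19 of translation. In these 4 lists 0 were called by edgeR. At an unadjusted p under 0.05 these 4 lists had 3, 4, 4 and 0 higher and 1, 0, 0 and 1 lower, where 12.3% of all genes were higher and 13.8% lower. Lists of 12 to 21 genes are too short to read such counts against those shares. DESeq2 called 0, 3, 1 and 0 higher, and limma-voom 0, 1, 1 and 0, with 0 lower by either tool. Nearest to the threshold in processing were FASTKD1 and HSD17B10 (0.45 and 0.35, edgeR adjusted p = 0.0906 and 0.128). Among those listed under stability they were CHCHD1, itself a mitochondrial ribosomal protein, and REXO2, an oligoribonuclease (0.49 and 0.41, edgeR adjusted p = 0.056 and 0.0617). In modification they were RPUSD3 and MRM1, a methyltransferase of mitochondrial ribosomal RNA (0.46 and 0.40, edgeR adjusted p = 0.0527 and 0.119), and in translation GUF1 and MTRF1 (-0.37 and 0.42, edgeR adjusted p = 0.103 and 0.231). Among 11 tested regulators of mitochondrial biogenesis 0 were called (1 higher and 2 lower unadjusted, 1 higher by DESeq2 and 0 by limma-voom), with ESRRA at 0.36 and TFE3 at -0.37 (edgeR adjusted p = 0.0723 and 0.115).

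Of 73 tested nuclear subunits of complexes I, III, IV and V, 10 rose and 0 fell by edgeR, against 3.08% higher and 4.75% lower over all genes, with a median log2 fold change of 0.29. At an unadjusted p under 0.05, 31 were higher and 1 lower (12.3 and 13.8% of all genes). DESeq2 called 17 higher and 1 lower (5.24 and 6.37%), and limma-voom 11 higher and 1 lower (3.31 and 4.38%). The groups did not overlap for 24 higher and 2 lower (14.4 and 15.9% of all genes). Summed over the list, the level overlapped, with 6850 to 9820 CPM in vector and 9240 to 9890 CPM in SETD8 libraries. The risers included NDUFC1 (0.60) and NDUFB6 (0.68) of complex I and ATP5F1E (0.49) and ATP5IF1, the ATP synthase inhibitor (0.59). All 10 lost their call without vector replicate 2 and without SETD8 replicate 1, 2 or 3 (highest edgeR adjusted p = 0.158, 0.197, 0.113 and 0.18). NDUFA12 and UQCR11 lost it without vector replicate 3 (highest 0.0574), and these 2 with ATP5MK lost it with length correction (highest 0.112).

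Long noncoding RNAs from nuclear genes, not all of them retained in the nucleus, and RNAs without poly(A) tails were also looked at. MALAT1, which is retained in the nucleus, had 19.7, 17.0 and 36.0 CPM in vector replicates 1, 2 and 3 and 8.25, 11.2 and 6.33 CPM in SETD8 replicates 1, 2 and 3. Of the 5 tested long noncoding RNAs it was the only call (log2 fold change -1.49 ± 0.29 SE, adjusted p = 0.017 by edgeR, and 0.0659 with the replicate block). All 5 had a negative log2 fold change, and 3 were lower at an unadjusted p under 0.05 by edgeR (13.8% of all genes). DESeq2 and limma-voom each called 1 lower. KCNQ1OT1 also had groups apart (-1.17, edgeR adjusted p = 0.106). The list summed to 320 to 419 CPM with the empty vector and 259 to 322 CPM with SETD8, most of it from NORAD (239 to 364 CPM in a library). The groups of MALAT1 did not overlap, and within a group its order matched that of the ribosomal RNA share only in part. MALAT1 and that share were each highest in vector replicate 3 among vector libraries and lowest in SETD8 replicate 3 among SETD8 libraries. MALAT1 was lowest in vector replicate 2 and highest in SETD8 replicate 2. The share was lowest in vector replicate 1 and highest in SETD8 replicate 1. A link between MALAT1 and the share was not tested. MALAT1 was 1 of the 682 genes called lower. Of 21 non-polyadenylated RNAs looked for, 20 were under the test's filter, and RN7SL2 had 89.6 to 140 CPM with the empty vector and 53.2 to 128 CPM with SETD8. Their part in the mitochondrial values was not tested.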

How the data were processed

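Poly(A)-selected libraries were made with a strand-marking kit, per the labels' protocols. The authors deposited unnormalized read counts for each gene. Builds GRCh38 and hg38, the aligners STAR and HISAT2 and the counters HTSeq and featureCounts appear in the submitters' processing notes, without roles or versions. The sources used here do not say which of these made the table, nor give its annotation or strand setting. Columns named NC were taken as the vector group, the only group other than SETD8.

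filterByExpr kept 14370 of 58735 genes. Libraries were scaled by TMM and compared by edgeR's robust quasi-likelihood test with Benjamini-Hochberg adjustment (edgeR 4.0.16, limma 3.58.1, DESeq2 1.42.0, R 4.3.3). The test was checked on simulated data. The SE is the log2 fold change divided by the square root of F. The floor of 3 counts corresponds to 0.15 to 0.174 CPM, for counting error only. Alternatives covered scaling, filters, DESeq2, limma-voom, a replicate block, transcript length, summed nuclear copies and each library left out.

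Members and lists were chosen with earlier results of these data known. Values per library are given for MT-RNR1, MT-RNR2, MT-CO3, each called member and the most abundant member of each class. MT-ND3, MT-TL1, MT-TC and MT-TP were added after their values were seen. Of other lists, up to 4 called genes, or else the 2 with the lowest adjusted p, were eligible for naming.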

Additional observations from a re-analysis of the deposited data

How the results depend on the processing

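Members called lower numbered 4, and 7 both with no low-count filter and with DESeq2. Leaving out each library gave 0 to 6, with 0 without vector replicate 2 and without SETD8 replicate 1, 2 or 3. Members called higher numbered 0, 1 with no low-count filter, 1 with DESeq2 and 0 to 2 with a library left out. The replicate block, for libraries that share a number, called 5 lower and 0 higher, and 645 lower and 532 higher of all genes. The deviations of same-numbered libraries correlated at 0.0247, 0.00778 and -0.0637, and those of differently numbered ones at -0.0954 to 0.0922. No effect shared by number was seen, but such values cannot tell whether the libraries were paired. Of all genes, 1051 were lower and 949 higher with no low-count filter, 678 higher with DESeq2 and 792 higher with library totals. With a library left out, 10 to 1738 were lower and 1 to 1771 higher. Of the nuclear mitochondrial-expression genes, 2 were higher, but 4 with DESeq2-type size factors, nuclear scaling or limma-voom, 7 with library totals or DESeq2, 9 with no low-count filter, 5 with the replicate block and 0 to 21 with a library left out. Lower ones numbered 0, and 1 with no low-count filter, the stricter filter, DESeq2, the replicate block or length correction, and 0 to 3 with a library left out.

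The differences in shares and in the ribosomal RNA to messenger ratio kept their sign under each alternative run. Without vector replicate 3 the total share differed by -0.941 percentage points, against -1.53. The messenger share differed by -0.132 without that library and -0.209 without SETD8 replicate 1, against -0.426. The transfer RNA share differed by -0.00725 without vector replicate 2, against -0.0153.

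Single genes that did not pass the test changed sign as follows. MT-ND2 had a log2 fold change of -0.073 with length correction and -0.015 to 0.2 with a library left out. MT-ATP8, at 0 within rounding, had 0.036 with library totals, 0.00025 with nuclear scaling, 0.0014 with no low-count filter, 0.00063 with DESeq2, 0.019 with limma-voom, 0.01 with the replicate block and -0.13 to 0.22 with a library left out. MT-TS2 had -0.28 with limma-voom and -0.54 to 0.89 with a library left out. The ranges with a library left out were -0.46 to 0.14 for MT-TV, -0.16 to 0.038 for MT-ND1, -0.023 to 0.17 for MT-TY, -0.15 to 0.038 for MT-CO2, -0.024 to 0.71 for MT-TR, -0.23 to 0.037 for MT-ND6 and -0.31 to 0.097 for MT-TE. Outside the mitochondrial genome they were -0.43 to 0.12 for RN7SL2, -0.57 to 0.041 for the endothelial marker VWF, -0.16 to 0.068 for MTND2P28 and -0.6 to 0.073 for MTATP6P1. The cause was not tested.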
